A study of Mus musculus with 473 samples.

Results

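The 6 genes described here encode the decarboxylase that makes dopamine, Ddc, and the enzymes that make and regenerate tetrahydrobiopterin (BH4), which are Gch1, Pts, Spr, Qdpr and Pcbd1. They were taken by symbol from the deposited expression table, and all 6 were found among its 28952 features. The values come from single cells sorted for green fluorescence from Th:EGFP mice, in which regulatory sequences of the tyrosine hydroxylase gene (Th) on a bacterial artificial chromosome drive eGFP, on an outbred Swiss Webster background. Every group carried this transgene, and the labels name no other allele or agent, so a cell was selected by the transgene and not by its own Th message. At postnatal day 7 (P7) cells were taken from the midbrain (MB), the forebrain (FB, the hypothalamus in the labels) and the olfactory bulb (OB). At embryonic day 15.5 (E15.5) they were taken from the midbrain and the forebrain. Each group was 1 pool of tissue, from 5 brains at P7 and from 4 at E15.5. With 1 pool for each group there is no replicate check, no difference was tested, and each SD below is the spread over cells.

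Dopamine is made from tyrosine in a pair of steps. Tyrosine hydroxylase, which needs BH4, makes L-DOPA, and aromatic amino acid decarboxylase (Ddc), which needs vitamin B6 as its cofactor, turns L-DOPA into dopamine. BH4 is built from GTP by GTP cyclohydrolase (Gch1), the rate-limiting enzyme, then by pyruvoyltetrahydropterin synthase (Pts) and sepiapterin reductase (Spr). BH4 that has been used by a hydroxylase is restored by pterin carbinolamine dehydratase (Pcbd1) and dihydropteridine reductase (Qdpr). In humans, mutations in several of these genes cause dopamine deficiency states, among them DOPA-responsive dystonia from GCH1.

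The authors' quality control kept 396 of 473 cells. The values below rest on 249 passed cells of the 3 library plates on which the gene number in the labels matched the column of the same name, with 30 cells of P7 MB, 31 of P7 FB, 16 of P7 OB, 88 of E15.5 MB and 84 of E15.5 FB. On the other 2 plates, both P7, the match was restored only by exchanging their columns well by well (correlations of -0.0338 and -0.0519 by name and of 0.999 on both after the exchange). Values over all 5 plates after that exchange are given where they add cells. The median number of genes per cell in the labels was 6126.5 in P7 MB, 5164 in P7 FB, 3310.0 in P7 OB, 6227.5 in E15.5 MB and 5554.5 in E15.5 FB. Neuronal markers (Tubb3, Snap25, Stmn2, Elavl4, Map2) were found in every cell. The noradrenergic markers Dbh, Slc6a2 and Phox2a were found in no cell of any group, and no cell had more than 1 of the serotonergic markers Tph2, Slc6a4, Fev and Slc22a3. At least 1 of 6 oligodendrocyte markers was found in 31.2% of P7 OB cells and in 59.5% to 70.0% of the cells of the other groups, and their part in the results was not tested.

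The values below turn most on Gch1 and Ddc, so their promoters are shown with that of Th. Each window runs from 250 bases before to 50 bases after a RefSeq start (build GRCm38.p6). The other members are Pts (chr9:50521617-50528724), Spr (chr6:85130176-85137766) and Qdpr (chr5:45434021-45450236), all on the minus strand, and Pcbd1 (chr10:61089331-61094324, plus strand), in GENCODE M21 on the same build. Gch1 lies on chromosome 14 (chr14:47153895-47189413, minus strand) and its window at chr14:47189364-47189663. Ddc (chr11:11814101-11898144, minus strand) has 2 windows, the distal at chr11:11898095-11898394 and the proximal, inside the gene, at chr11:11890359-11890658. Th lies on chromosome 7 (chr7:142892752-142931128, minus strand) with its window at chr7:142899946-142900245. Capitals mark the motifs TGACGTCA (cyclic AMP response element), AAAGGTCA (NBRE, the motif of the Nr4a2 family of nuclear receptors) and CCAAT, and the motif of general core promoters, TATAAA, each searched on both strands.
Gch1: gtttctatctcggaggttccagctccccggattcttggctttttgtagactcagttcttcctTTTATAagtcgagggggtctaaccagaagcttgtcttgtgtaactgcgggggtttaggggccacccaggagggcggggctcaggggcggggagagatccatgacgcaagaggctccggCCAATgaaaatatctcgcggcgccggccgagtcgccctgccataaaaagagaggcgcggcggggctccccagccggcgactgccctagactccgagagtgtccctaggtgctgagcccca
Ddc, distal: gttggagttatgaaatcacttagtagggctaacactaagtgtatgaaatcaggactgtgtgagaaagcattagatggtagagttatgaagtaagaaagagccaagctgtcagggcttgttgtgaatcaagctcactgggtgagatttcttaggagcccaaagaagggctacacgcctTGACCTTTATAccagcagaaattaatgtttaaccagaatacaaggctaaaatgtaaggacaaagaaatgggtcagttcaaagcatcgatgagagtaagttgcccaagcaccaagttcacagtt
Ddc, proximal: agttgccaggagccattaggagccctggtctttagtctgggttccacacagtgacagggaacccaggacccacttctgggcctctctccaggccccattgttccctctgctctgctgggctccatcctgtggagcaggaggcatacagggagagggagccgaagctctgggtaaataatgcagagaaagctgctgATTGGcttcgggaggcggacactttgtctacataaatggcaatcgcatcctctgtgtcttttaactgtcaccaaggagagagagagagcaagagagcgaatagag
Th: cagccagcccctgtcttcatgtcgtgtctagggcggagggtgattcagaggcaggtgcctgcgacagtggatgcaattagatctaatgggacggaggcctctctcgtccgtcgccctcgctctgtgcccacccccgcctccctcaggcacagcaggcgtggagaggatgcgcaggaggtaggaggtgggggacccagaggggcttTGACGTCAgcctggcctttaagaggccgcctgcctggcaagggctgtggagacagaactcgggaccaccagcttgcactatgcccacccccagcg
The Gch1 window holds CCAAT at position -70 from the start and TATAAA on the other strand at position -188. The distal Ddc window holds, on the other strand, an NBRE at position -73 that overlaps a TATAAA at position -68, and the proximal window holds CCAAT on the other strand at position -55. The TGACGTCA at position -45 of Th is the cyclic AMP response element, and none of the 7 windows of the members holds these letters. Of 32851 mouse promoters of the same length, 1.79% hold TGACGTCA, 37.4% CCAAT, 13.6% TATAAA and 1.51% AAAGGTCA on either strand. The matches are descriptions of the sequence. The expression table has 1 row for each gene, so use of the distal and proximal Ddc starts could not be told apart.

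Gch1 split the P7 midbrain cells, which nearly all had Th and Ddc, into cells with and cells without it. A gene is called found in a cell at a level of 1 FPKM or more, where FPKM is fragments per length of transcript and library size. Gch1 was found in 15 of 15 cells of the labelled cluster P7.MB.1 and in 7 of 7 of P7.MB.4, but in 0 of 4 of P7.MB.2 and 0 of 4 of P7.MB.3. In P7.MB.1 Gch1 ran from 22.0 to 580 FPKM with a median of 162 and a mean of 202 ± 168 (SD). In P7.MB.4 it ran from 30.3 to 140 FPKM with a mean of 69.7 ± 37.6 (SD). The values in P7.MB.3 were 0, 0, 0 and 0.350 FPKM, and all 4 in P7.MB.2 were 0. No cell of P7.MB.2 or P7.MB.3 reached the lowest cell of P7.MB.1 or P7.MB.4.

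The missing Gch1 in P7.MB.3 was not accompanied by missing Th or Ddc. Th was at 1195, 1300, 1317 and 3006 FPKM in the 4 P7.MB.3 cells, within the range of 761 to 4229 FPKM in P7.MB.4. Its median was lower in P7.MB.3, at 1308 FPKM, against 2713 FPKM in P7.MB.1 and 2540 FPKM in P7.MB.4. Ddc was at 50.1, 136, 203 and 298 FPKM in P7.MB.3, against a median of 487 FPKM in P7.MB.1 and of 735 FPKM in P7.MB.4. Pcbd1 was at 112, 125, 294 and 340 FPKM in P7.MB.3, with a mean of 218 ± 116 (SD), against 99.9 ± 70.6 in P7.MB.1 and 109 ± 72 in P7.MB.4, and the ranges overlapped. Slc18a2, the vesicular monoamine transporter, was found in all 4 P7.MB.3 cells but averaged 40.1 FPKM there, against 547 FPKM in P7.MB.1 and 550 FPKM in P7.MB.4. The dopamine transporter Slc6a3 averaged 246 FPKM in P7.MB.3, 762 FPKM in P7.MB.1 and 3340 FPKM in P7.MB.4. In P7.MB.3, the median number of genes per cell was 5194, against 6014 in P7.MB.1 and 7490 in P7.MB.4, and the part of this difference in the result was not tested.

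With the exchanged plates the split of Gch1 was the same. Gch1 was found in 39 of 39 P7.MB.1 cells and 15 of 15 P7.MB.4 cells, against 0 of 11 P7.MB.2 cells and 0 of 10 P7.MB.3 cells. For 0 of 10 cells the exact 95% interval of the share, which covers counting error only, runs up to 30.8%. The highest value in P7.MB.2 and P7.MB.3 was 0.396 FPKM, and the lowest in P7.MB.1 and P7.MB.4 was 9.80 FPKM. All 10 P7.MB.3 cells had Th, Ddc and Pcbd1. P7.MB.2 differed from P7.MB.3 in that Th averaged 43.1 FPKM on the matched plate and Ddc was found in 2 of 4 cells. The cluster names come from the labels and may rest on the expression of these same cells, Gch1 included, so its absence from a cluster is a description.

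**Figure D1:**
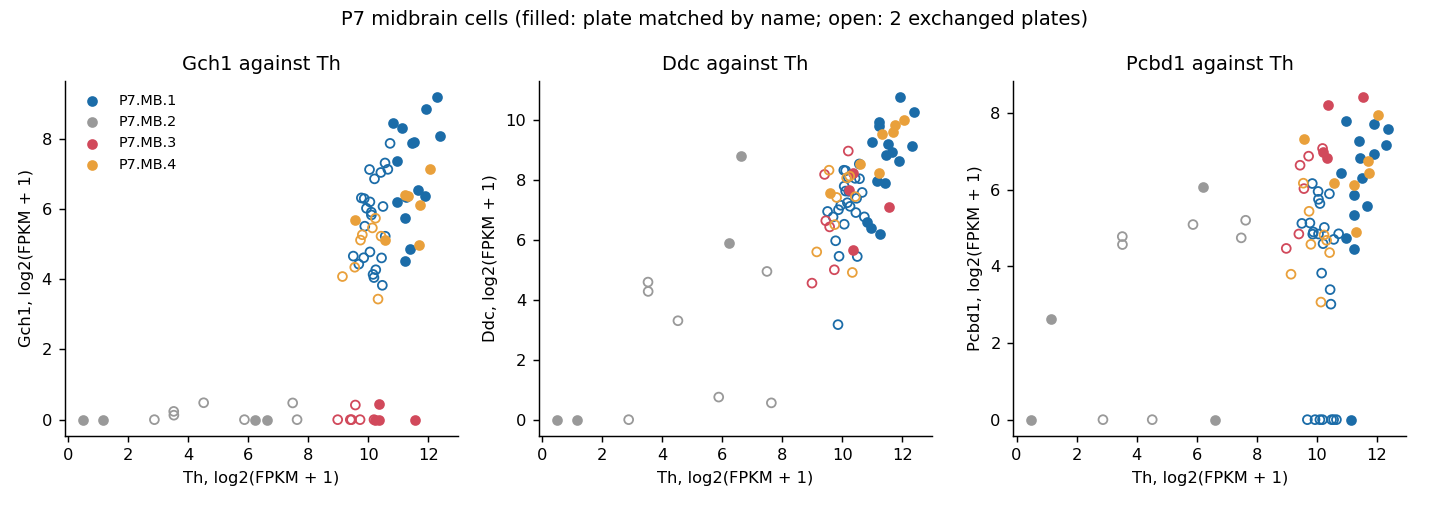
Gch1, Ddc and Pcbd1 against Th in each P7 midbrain cell, both axes in log2(FPKM + 1), coloured by the cluster in the labels, with filled points from the plate matched by name and open points from the 2 exchanged plates. The P7.MB.3 cells sit at 0.350 FPKM of Gch1 or less on the matched plate, beside P7.MB.1 and P7.MB.4 cells of similar Th with 22.0 FPKM of Gch1 or more.

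Across the 5 groups Gch1 was most often found in P7 MB. It was found in 73.3% of P7 MB cells (22 of 30, exact 95% interval 54.1% to 87.7%), 16.1% of P7 FB cells (5 of 31, 5.45% to 33.7%) and 25.0% of P7 OB cells (4 of 16, 7.27% to 52.4%). Its share at E15.5 was 19.3% of MB cells (17 of 88, 11.7% to 29.1%) and 3.57% of FB cells (3 of 84, 0.743% to 10.1%). The interval of P7 MB overlapped none of the others, with that of P7 OB the nearest (from 54.1% against up to 52.4%). The share of all features with separate intervals was not computed, so this is a description. P7 OB cells had a median of 3310 genes against 6126.5 in P7 MB, and the part of this was not tested. The mean of Gch1 was 117 ± 148 FPKM in P7 MB, 30.8 ± 78.9 in P7 FB, 16.0 ± 47 in P7 OB, 43.2 ± 163 in E15.5 MB and 3.16 ± 20.5 in E15.5 FB (SD over cells). The median was 70.6 FPKM in P7 MB and 0 in the other groups.

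Ddc was found more widely than Gch1. It was found in 93.3% of P7 MB cells (28 of 30, 77.9% to 99.2%), 54.8% of P7 FB cells (17 of 31, 36% to 72.7%) and 50% of P7 OB cells (8 of 16, 24.7% to 75.3%), and at E15.5 in 26.1% of MB cells (23 of 88, 17.3% to 36.6%) and 31% of FB cells (26 of 84, 21.3% to 42%). The mean was 474 ± 417 FPKM in P7 MB, 195 ± 305 in P7 FB, 70.3 ± 99.6 in P7 OB, 409 ± 1120 in E15.5 MB and 149 ± 602 in E15.5 FB. The mean of E15.5 MB thus came from 23 of 88 cells. The highest cell of E15.5 MB, at 7328 FPKM, gave 20.3% of that group's sum, and the highest cell of E15.5 FB, at 4286 FPKM, gave 34.2%. An antisense transcript, 1700042O10Rik, overlaps Ddc and the sources used here do not say whether strand was used in counting, so reads of the pair cannot be told apart.

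**Figure D2:**
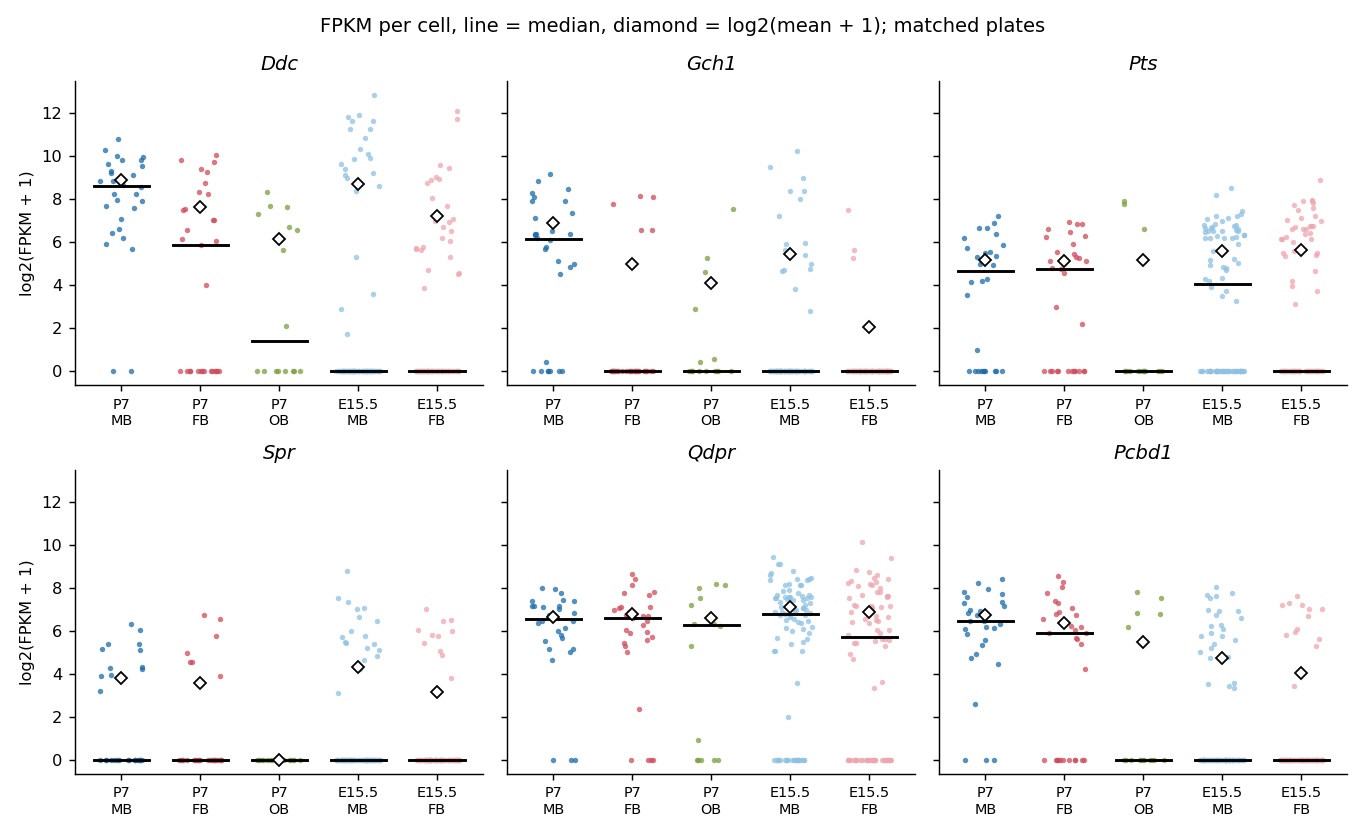
FPKM of each member in each of the 249 cells, as log2(FPKM + 1), by group, with the median as a line and log2 of the mean plus 1 as a diamond. Ddc and Gch1 fall into cells at or near 0 and cells well above it, and the median of Gch1 is above 0 in P7 MB alone.

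Of the enzymes after Gch1 on the way to BH4, Pts had like means in all 5 groups, but it was found in a smaller share of P7 OB cells. Pts averaged 35.2 ± 40.4 FPKM in P7 MB, 34.2 ± 39.4 in P7 FB, 34.8 ± 80.2 in P7 OB, 46.8 ± 65.6 in E15.5 MB and 48.3 ± 82.2 in E15.5 FB. It was found in 63.3% of P7 MB, 61.3% of P7 FB, 18.8% of P7 OB, 54.5% of E15.5 MB and 42.9% of E15.5 FB cells, so the like mean of P7 OB came from 3 of 16 cells. Spr had the lowest mean of the 6 in every group but E15.5 FB, where Gch1 was lower, with means of 12.9 ± 20.9 FPKM in P7 MB, 10.9 ± 26.2 in P7 FB, 19.0 ± 58 in E15.5 MB and 7.80 ± 23.1 in E15.5 FB. It was listed at 0 in all 16 P7 OB cells of the matched plate and was found in 40.0% of P7 MB, 22.6% of P7 FB, 21.6% of E15.5 MB and 13.1% of E15.5 FB cells. After the exchange Spr was found in 3 of 68 P7 OB cells.

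The regenerating enzymes behaved differently from each other. Qdpr was found in most cells of every group, with means of 99.5 ± 69.2 FPKM in P7 MB, 109 ± 98.3 in P7 FB, 94.3 ± 104 in P7 OB, 137 ± 141 in E15.5 MB and 116 ± 171 in E15.5 FB. It was found in 90% of P7 MB, 87.1% of P7 FB, 62.5% of P7 OB, 76.1% of E15.5 MB and 63.1% of E15.5 FB cells. The antisense transcript Gm42413 overlaps Qdpr, with the same limit as for Ddc. Pcbd1 was more often found at P7 than at E15.5 in MB and in FB. It was found in 90% of P7 MB (27 of 30, 73.5% to 97.9%), 64.5% of P7 FB (20 of 31, 45.4% to 80.8%) and 31.2% of P7 OB cells (5 of 16, 11.0% to 58.7%), against 29.5% of E15.5 MB (26 of 88, 20.3% to 40.2%) and 15.5% of E15.5 FB cells (13 of 84, 8.51% to 25.0%). The interval of P7 OB overlapped those of both E15.5 groups, and after the exchange Pcbd1 was found in 13 of 68 P7 OB cells (19.1%). Its means were 107 ± 88.3 FPKM in P7 MB, 81.4 ± 97.8 in P7 FB, 43.9 ± 74.7 in P7 OB, 25.6 ± 55.4 in E15.5 MB and 15.2 ± 41.5 in E15.5 FB.

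Within P7, the mean of Gch1 in MB was 1.90 higher than in FB on the scale log2((mean + 1)/(mean + 1)), and that of Ddc was 1.28 higher. This scale understates differences of genes with low values. These 2 of 6 members were at least 2-fold higher and 0 were at least 2-fold lower, where 10.8% of all 13041 features with a mean of at least 1 FPKM in either group were higher and 13.8% were lower. The other log2 differences were 0.39 for Pcbd1, 0.22 for Spr, 0.04 for Pts and -0.12 for Qdpr. Pcbd1 was at -0.48 and -0.58 on the 2 exchanged plates alone, so its direction turned there. The median of the 6 members was 0.30 and that of all features -0.08. On each exchanged plate alone the differences were again past 2-fold, with 2.17 and 4.19 for Gch1 and 1.68 and 1.56 for Ddc.

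Against P7 OB the means of P7 MB were 2.80 higher for Gch1, 2.74 for Ddc and 1.26 for Pcbd1 (log2), with Spr listed at 0 in P7 OB and Pts (0.02) and Qdpr (0.08) near 0. Counting Spr, 4 of 6 members were at least 2-fold higher and 0 lower, beside 29.8% and 20.3% of all features. After each cell was rescaled to the same total, Pcbd1 was at 0.97, within 2-fold, and Gch1, Ddc and Spr stayed past it. Spr was at -0.039 on plate TH02_16.18.20 alone and at -0.19 with the failed cells, so its call and direction did not hold there. In P7 FB against P7 OB, Ddc was 1.46 higher, Gch1 0.91 and Pcbd1 0.87, and 2 members, Ddc and Spr, were at least 2-fold higher and 0 lower, beside 31.1% and 18.0% of all features. The shares of all features that differ from P7 OB are large, so these counts of members are read as descriptions. After the exchange Gch1 (1.24), Pcbd1 (1.78), Spr (1.22) and Ddc (1.81) were all past 2-fold in P7 FB against P7 OB. The plates were not alike for P7 FB over OB, since Gch1 was at 1.76 and -0.82 and Spr at -0.25 and -0.29 on the 2 exchanged plates alone. These 3 comparisons share their groups of cells with each other. P7 OB cells also had the fewest genes, and the part of this in the result was not tested.

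At E15.5, Gch1 was 3.41 higher in MB than in FB on the log2 scale, with Ddc at 1.45 and Spr at 1.18. These 3 of 6 members were at least 2-fold higher and 0 lower, beside 8.46% and 9.41% of all features. Pcbd1 was at 0.71, Qdpr at 0.24 and Pts at -0.04, and the median of all features was -0.12. On each E15.5 plate alone Gch1 was at 3.45 and 3.42. The value of Ddc was 1.16 on plate TH01_14.15 and 2.94 on plate TH01_15.14. Ddc of E15.5 FB averaged 263 FPKM on plate TH01_14.15 and 30.2 FPKM on plate TH01_15.14. As a difference of mean log2 values, which weights every cell alike, Ddc was at 0.17, Spr at 0.52 and Gch1 at 1.02. After each cell was rescaled to the same total, Spr was at 0.86, within 2-fold, and Ddc (1.61) and Gch1 (3.39) stayed past it.

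The E15.5 midbrain cells with high Ddc and Gch1 were mostly in 1 cluster. In E15.MB.2, Ddc was found in 17 of 20 cells with a mean of 1719 ± 1828 FPKM, against 6 of 68 cells and 24.3 ± 137 FPKM in E15.MB.1. Gch1 was found in 11 of 20 E15.MB.2 cells with a mean of 183 ± 309 FPKM, against 6 of 68 and 2.08 ± 7.57 FPKM in E15.MB.1. Th averaged 3780 ± 6476 FPKM in E15.MB.2 and 29.6 ± 132 FPKM in E15.MB.1. All 13 E15.MB.2 cells with Th had Ddc, and 8 of them had Gch1. Of the 7 E15.MB.2 cells with no Th, 4 had Ddc and 3 had Gch1. Qdpr went the other way in share, with 13 of 20 E15.MB.2 cells (65%) against 54 of 68 E15.MB.1 cells (79.4%), and Pts with 7 of 20 (35%) against 41 of 68 (60.3%). The exact intervals of E15.MB.2 and E15.MB.1 overlapped for both.

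In the forebrain and olfactory bulb Gch1 was found in a minority of cells. On the matched plate all 5 P7 FB cells with Gch1 were in P7.FB.2, at 93.4 to 282 FPKM, and their Ddc ran from 604 to 1072 FPKM, above the highest of the 26 P7 FB cells without Gch1 (423 FPKM). Over all 5 plates this separation was not seen, with 4 of 13 P7 FB cells with Gch1 listed without Ddc at 1 FPKM. In the olfactory bulb P7.OB.3 had the most members, with Ddc in 5 of 6 cells, Pcbd1 in 4 of 6 and Gch1 in 3 of 6. P7.OB.2 had Th in all 5 cells at a mean of 2738 FPKM, against 2098 FPKM in P7.OB.3, but Ddc in 2 of 5 and Gch1 in 1 of 5. P7.OB.1 had Ddc in 1 of 5 cells and Gch1 and Pcbd1 in 0 of 5. After the exchange Ddc was found in 13 of 15 P7.OB.3 cells, 15 of 33 P7.OB.2 cells and 3 of 20 P7.OB.1 cells, and Pcbd1 in 8 of 15, 5 of 33 and 0 of 20 cells in the same order of clusters. The median number of genes was 4785 in P7.OB.3, 3227 in P7.OB.2 and 2920 in P7.OB.1 over these cells, and the part of depth was not tested.

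**Figure D3:**
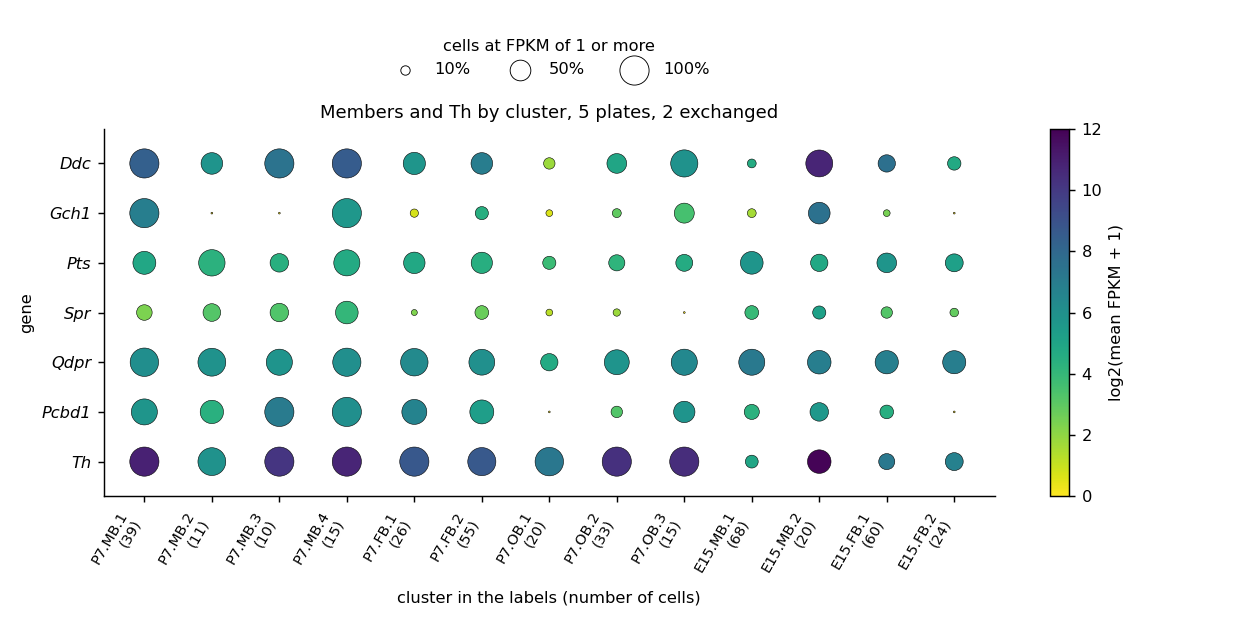
Share of cells with the gene (size of the circle) and log2(mean FPKM + 1) (colour) for the members and Th in the 13 clusters of the labels, over 396 cells with the 2 plates exchanged, P7 clusters left of E15.5 clusters. Gch1 is found in 100% of P7.MB.1 and P7.MB.4 cells and in 0% of P7.MB.2 and P7.MB.3 cells, and Qdpr is found in every cluster.

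Between the ages most values shifted, so the members are read against that shift. The median log2 difference of all features was -1.18 for P7 over E15.5 in MB and -1.20 in FB. The ages also differ in sort, sequencing run, time of dissociation and a density gradient used at P7, none of which can be told apart from age. In MB, Pcbd1 was 2.02 and Gch1 1.42 higher at P7, Ddc was at 0.21, and Pts (-0.40), Qdpr (-0.46) and Spr (-0.53) were below 0 but above the median of all features. The direction of these 3 turned after each cell was rescaled to the same total, with 0.51 for Pts, 0.52 for Qdpr and 0.50 for Spr. Thus 2 of 6 members were at least 2-fold higher and 0 lower, beside 5.23% and 58.4% of all features. In FB, Gch1 was 2.93 and Pcbd1 2.34 higher, with Spr at 0.44, Ddc at 0.39, Qdpr at -0.09 and Pts at -0.49, again 2 members higher and 0 lower, beside 6.73% and 58.8%. The comparisons of P7 groups and of E15.5 groups with each other use the same cells as these.

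After each cell was rescaled to the same total, the median of all features was -0.28 in MB and -0.25 in FB, and Pcbd1 was at 3.10 in MB and 2.99 in FB, Gch1 at 2.42 and 3.86, and Ddc at 1.29 and 1.67. In FB, Pts turned to 0.59 and Qdpr to 1.08, and Spr was at 1.12. The summed FPKM per cell had a median of 493126 in P7 MB and 972789 in E15.5 MB. With the exchanged plates, whose sums are lower still, Gch1 was at 0.73 in MB and 1.92 in FB and Pcbd1 at 1.23 and 1.85 as deposited, while Ddc turned to -0.56 and -0.55 in the same regions and Spr to -0.51 in FB. Pcbd1 was past 2-fold in both regions as deposited, rescaled and with the exchanged plates, and so was Gch1 in FB. As a difference of mean log2 values, Gch1 in FB was at 0.98.

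**Figure D4:**
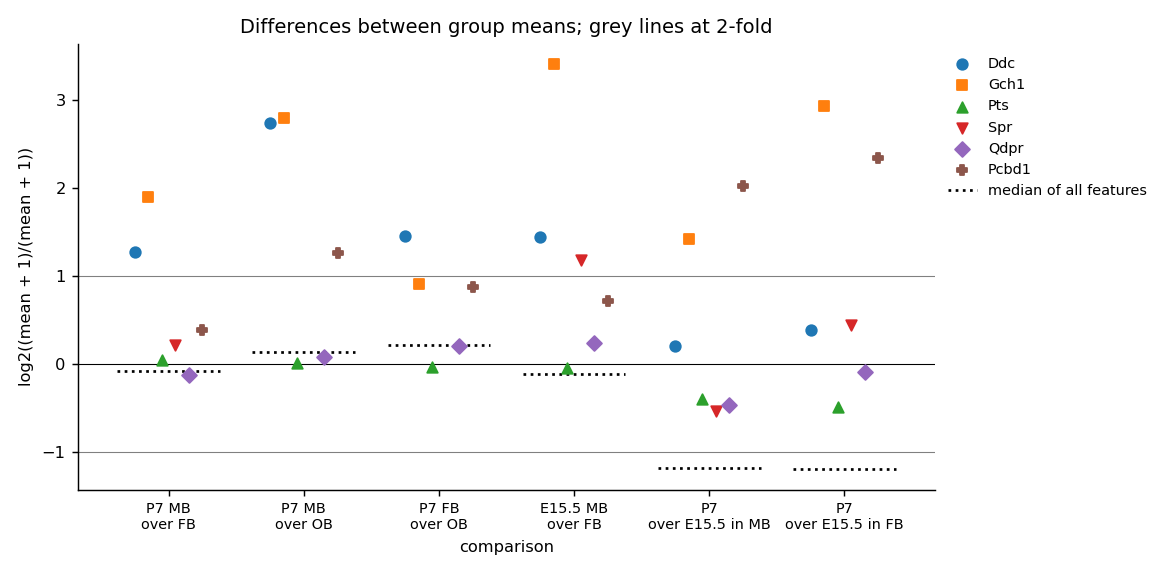
Log2((mean + 1)/(mean + 1)) of each member in the 6 comparisons, with the median of all features as a dotted line and 2-fold as grey lines. Spr is left out against P7 OB, where it is listed at 0. Among the members drawn, Gch1 has the highest difference in 4 of the 6 comparisons, Ddc (1.46) in P7 FB over OB and Pcbd1 (2.02) in P7 over E15.5 in MB.

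Per cell, the most members were found in the P7 midbrain. The median number of the 6 members found in a cell was 5 in P7 MB, 3 in P7 FB, 2 in P7 OB, 2 in E15.5 MB and 1.5 in E15.5 FB. Th, Ddc and Gch1 were found together in 22 of 30 P7 MB cells (73.3%), 5 of 31 P7 FB cells (16.1%), 3 of 16 P7 OB cells (18.8%), 8 of 88 E15.5 MB cells (9.09%) and 1 of 84 E15.5 FB cells (1.19%). Th without Ddc and without Gch1 was seen in 1 P7 MB cell, 14 P7 FB cells, 7 P7 OB cells, 9 E15.5 MB cells and 12 E15.5 FB cells. Gch1, Pts and Spr, the whole route from GTP to BH4, were found together in 7 of 30 P7 MB cells, 1 of 31 P7 FB cells, 0 of 16 P7 OB cells, 0 of 88 E15.5 MB cells and 2 of 84 E15.5 FB cells. All 6 members were found in 7 P7 MB cells and 1 P7 FB cell. These counts have no share over all features beside them and are descriptions. The median number of genes per cell was 6126.5 in P7 MB, 5164 in P7 FB and 3310 in P7 OB. It was 6227.5 in E15.5 MB and 5554.5 in E15.5 FB, and the part of depth in the counts was not tested.

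Th itself was found in 29 of 30 P7 MB, 30 of 31 P7 FB and 16 of 16 P7 OB cells, which leaves too few P7 cells without Th to compare. The E15.5 groups had Th in 26 of 88 MB cells and 27 of 84 FB cells although all were sorted for eGFP. In E15.5 MB, Ddc was found in 57.7% of cells with Th (15 of 26, 36.9% to 76.6%), against 12.9% of cells without Th (8 of 62, 5.74% to 23.9%). Gch1 was found in 38.5% of cells with Th (10 of 26), against 11.3% without (7 of 62), and the 2 exact intervals of Gch1 overlapped. These 2 of 6 members had a share at least 20 percentage points higher in cells with Th, and 0 had one at least 20 points lower, beside 2.55% and 4.64% of all features found in 10% to 90% of the cells. Pts differed by -6.45 points, Spr by -3.35, Qdpr by -9.80 and Pcbd1 by 1.74. The median number of genes was 5906.5 in cells with Th and 6267.5 in cells without. Within cluster E15.MB.1, Ddc and Gch1 were each found in 2 of 13 cells with Th and 4 of 55 without, 8.11 points apart. Within E15.MB.2 the difference was 42.9 points for Ddc and 18.7 for Gch1. The part of the clusters in the difference over all E15.5 MB cells was not tested.

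In E15.5 FB, Ddc was found in 55.6% of cells with Th (15 of 27, 35.3% to 74.5%), against 19.3% without (11 of 57, 10.05% to 31.9%), while Gch1 was found in 1 of 27 cells with Th and 2 of 57 without. Of the 5 members found in 10% to 90% of these cells, which leaves out Gch1, 1 was at least 20 points higher and 0 lower, beside 1.82% and 4.0% of all features. The difference of Ddc rested on 1 plate, at 59 points on plate TH01_14.15 and 1.52 points on plate TH01_15.14. In MB the difference of Ddc was 56 points on plate TH01_14.15 and 30.7 on plate TH01_15.14, and that of Gch1 19.5 and 39.8 on the same plates.

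**Figure D5:**
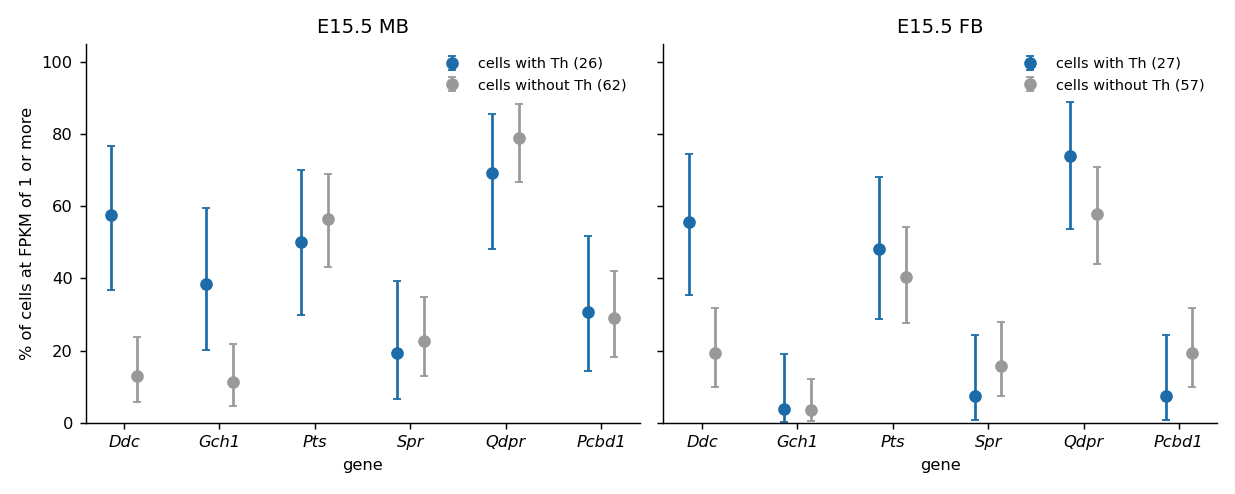
Share of E15.5 cells with each member at 1 FPKM or more, in cells with Th (blue) and without Th (grey), with exact 95% intervals, for MB and FB. Ddc is at 57.7% and 12.9% in MB and at 55.6% and 19.3% in FB, and the intervals of Pts, Spr, Qdpr and Pcbd1 overlap in both.

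The level of Th went with those of Ddc and Gch1 over the P7 MB cells, cells at 0 included. Spearman's correlation over the 30 cells was 0.72 for Ddc and 0.62 for Gch1, and 0.59 and 0.58 after each cell was rescaled to the same total, given as a description since the cells share 1 library plate and pool. Before rescaling it was 0.39 for Pts and Qdpr, 0.42 for Pcbd1 and 0.16 for Spr. After rescaling it was 0.35 for Pts, 0.31 for Qdpr, 0.36 for Pcbd1 and 0.05 for Spr. Over the 75 P7 MB cells after the exchange, also rescaled, these were 0.10, 0.10, 0.04 and -0.04 in the same order. Ddc was at 0.53 and Gch1 at 0.64 over those cells. Among P7 FB cells with Th, the median Th was 504 FPKM in cells with Ddc and 170 FPKM in cells without it. It was 1621 FPKM in the 5 cells with Gch1 and 248 FPKM in cells without it. After the exchange these medians were 231 and 88.4 FPKM for Ddc and 480 and 147 FPKM for Gch1, over 13 cells with Gch1. Spearman's correlation of Gch1 with Th over P7 FB cells was 0.50 on the matched plate and 0.17 after the exchange.

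Of the genes around the pathway, the regulator of Gch1 was found in few cells of any group. Gchfr, the feedback regulatory protein that binds Gch1, was found in 2 of 30 P7 MB, 1 of 31 P7 FB, 3 of 16 P7 OB, 2 of 88 E15.5 MB and 0 of 84 E15.5 FB cells, and was 1.81 (log2) lower in P7 MB than in P7 OB (2.82 and 12.4 FPKM). The list of BH4 regulation, salvage and side routes (among them Gchfr, Pcbd2, Cbr1 and Akr1b3) had 1 of 5 measured genes at least 2-fold higher and 0 lower in P7 MB over FB, 1 higher and 1 lower in P7 MB over OB, 0 higher and 1 lower in P7 FB over OB, 1 higher and 0 lower of 4 in E15.5 MB over FB, 1 higher and 0 lower of 5 in P7 over E15.5 in MB, and 0 higher and 1 lower of 4 in P7 over E15.5 in FB. In the same order of comparisons, 10.8%, 29.8%, 31.1%, 8.46%, 5.23% and 6.73% of all features were higher and 13.8%, 20.3%, 18.0%, 9.41%, 58.4% and 58.8% lower, so 1 gene of 5 is no result about the list. The aldose reductase Akr1b3 averaged 69.2 FPKM in P7 MB and 29.4 FPKM in P7 OB, a log2 difference of 1.21, and Pcbd2, a homologue of Pcbd1, 20.8 FPKM in P7 MB and 9.32 FPKM in E15.5 MB, at 1.08. Cbr1, a carbonyl reductase, averaged 61.3 FPKM in P7 FB and 138 FPKM in E15.5 FB, at -1.16, near the median of all features.

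Other enzymes that use BH4 were at or near 0. Tph1, Nos2 and Agmo were listed at 0 in all 5 groups, and Tph2 of serotonin synthesis was found in 2 P7 MB cells. Apart from Th, no enzyme of this list of 8 reached a mean of 3 FPKM in any group. Of those with a mean of at least 1 FPKM, the enzymes past 2-fold upwards numbered 3 of 3 in P7 MB over FB, 2 of 4 in P7 MB over OB, 2 of 3 in E15.5 MB over FB and 2 of 4 in P7 over E15.5 in MB, with 0 lower. In P7 FB over OB 0 of 2 were higher and 2 lower, and in P7 over E15.5 in FB 1 of 2 was higher and 1 lower. Of all features, 10.8%, 29.8%, 8.46% and 5.23% were higher in the first 4 of these comparisons, and 13.8%, 20.3%, 9.41% and 58.4% were lower. In P7 FB over OB 31.1% were higher and 18.0% lower, and in P7 over E15.5 in FB 6.73% and 58.8%. Of the enzymes counted in P7 MB, Tph2 was found in 2 and Nos1 in 5 of 30 cells. In E15.5 MB over FB the enzyme counted beside Th was Nos3, with means of 2.15 and 0.443 FPKM. The log2 differences of Th in these 6 comparisons were 1.58, 0.44, 2.68, 1.41, -1.14 and 2.50. For vitamin B6, the kinase Pdxk was 1.08 lower (log2) at P7 than at E15.5 in MB (28.1 and 60.4 FPKM), near the median of all features, and it was not past 2-fold in the other comparisons.

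Storage and uptake genes were also higher in MB than in FB. Of 12 listed monoamine genes, 8 were measured in P7 MB over FB, where 5 were at least 2-fold higher and 1 lower with a median of 1.27, beside 10.8% and 13.8% of all features. The lower gene, Pnmt, was found in 1 P7 FB cell. Slc6a3 averaged 1193 FPKM in P7 MB and 119 FPKM in P7 FB (3.32), where 1 cell gave 95.5% of the P7 FB sum, Slc18a2 408 and 60.7 FPKM in the same groups (2.73), the autoreceptor Drd2 43.8 and 9.53 FPKM (2.09), and monoamine oxidase Maoa 31.3 and 15.0 FPKM (1.02). In P7 MB over OB 4 of 7 were higher and 0 lower, beside 29.8% and 20.3% of all features, and in P7 FB over OB 2 of 8 were higher and 1 lower, beside 31.1% and 18.0%. In P7 over E15.5 in FB 4 of 8 were higher and 2 lower, beside 6.73% and 58.8%, but of the higher ones Slc6a3 (6.15) rested mainly on that 1 P7 FB cell and Pnmt on 1 cell alone. In E15.5 MB over FB, 2 of 7 were higher and 0 lower, Slc6a3 at 7.10 and Slc18a2 at 2.11, beside 8.46% and 9.41%. The list of 8 midbrain dopaminergic regulators had 7 of 7 measured genes higher in MB over FB at both ages, among them Pitx3 with 38.8 FPKM in P7 MB and 1.89 FPKM in P7 FB, and 107 FPKM in E15.5 MB and 0.880 FPKM in E15.5 FB. It had 6 of 7 higher in P7 MB over OB, 3 of 4 higher and 1 lower in P7 FB over OB, and 2 of 4 higher and 1 lower in P7 over E15.5 in FB, each beside the shares of all features given for the same comparison of the monoamine genes. In P7 FB, however, Pitx3 and En1 were each found in 1 of 31 cells and Lmx1a in 3, so the higher calls of the P7 FB comparisons rest on those cells. From E15.5 MB, P7 MB differed with 3 of 7 regulators at least 2-fold lower and 0 higher, beside 58.4% and 5.23% of all features, Nr4a2 at -1.79, Pitx3 at -1.44 and Lmx1a at -1.13, where the median of all features was -1.18, while Slc6a3 (2.37), Slc18a2 (1.81), Drd2 (1.58), Maob (2.20) and Maoa (1.34) were higher and Slc18a1 (-1.60) was lower.

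Over the 13 clusters, the feature whose log2(mean + 1) was most like that of Gch1 was Slc18a2, with Pearson's r of 0.92 among 9568 features, and the nearest 5 also held Gsn (0.90), Acsl4 (0.88) and Chrna6, a nicotinic receptor subunit (0.84). Slc18a2 was again the nearest with the exchanged plates, at 0.88. For Ddc the nearest were Maoa (0.89), Cdk14 (0.87), Tmem255a (0.86), Clptm1l (0.86) and Mgat4a (0.84), and Maoa was again the nearest after the exchange at 0.89, but ranked 40 from mean log2 values (0.77). The nearest of Pcbd1 was Cisd3 (0.93, and 0.94 after the exchange). For Pts (Glrx, 0.98), Spr (Grhpr, 0.96) and Qdpr (Cacng8, 0.93) the nearest feature was not among the nearest 50 after the exchange. Each r is over 13 clusters of unequal size that share plates and pools.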

How the data were processed

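Single cells from pools of Th:EGFP mouse brains were sorted for fluorescence and made into Smart-Seq2 libraries, per the labels' protocols. The authors deposited 1 table of FPKM values per gene and cell. HISAT2, Cuffnorm and the build mm10 are named in the submitters' processing notes, while the sources used here give neither their versions nor the use of strand. Those FPKM were used as deposited. Depth in reads is unknown, so the gene number per cell in the labels stands in for it, and intervals cover counting error only. A value of 0 can be a failed estimate, although 6 housekeeping genes were at 0 in at most 1.59% of their values in any group.

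Feature IDs were matched to symbols with GENCODE M21. A gene was found at 1 FPKM or more. Group means were compared as log2 with 1 FPKM added, and 2-fold was called, against all features with a mean of at least 1 FPKM in either group. Shares have exact (Clopper-Pearson) 95% intervals. Each group is 1 pool, so no test was run. Groups and clusters come from the labels, and cells that failed quality control and the 2 mismatched plates were left out, except where stated. The fold calculation was run on simulated data, with changes well past 2-fold in features of a mean well above 1 FPKM. Calls near 2-fold or at low means were not checked by it. Python 3.11.15, numpy 2.4.6, pandas 2.3.3, scipy 1.17.1 and matplotlib 3.10.9 were used.

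The members and lists were chosen with earlier results of these data known. The text names the 6 members and Th, genes of 5 lists past 2-fold, and for each member up to 5 features whose log2 cluster mean was most correlated with it, among features of at least 20 FPKM in 1 cluster. Alternatives were other pseudocounts, mean log2 values, rescaled cells, the highest cell left out, failed cells, at least 3000 genes, other limits for a found gene, and other sets of plates. The alternative by cluster and plate was added after the data were seen. Some genes of the lists are not reported here.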

Additional observations from a re-analysis of the deposited data

Results flagged for a closer look

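Cells that failed the quality control of the authors also held transcripts of the members. On the matched plates there were 34 such cells. Ddc was found in 26.5% of them, Pts in 14.7%, Spr in 20.6%, Qdpr in 29.4% and Pcbd1 in 11.8%, and Gch1 in 5.88%. The first 5 shares are above 8.82% (3 counts of 34 cells), the limit used to pick them out, which is no test of a difference. These cells have no part in the comparisons, and the origin of their signal was not tested.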

How the results depend on the processing

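Of 390 log2 differences recomputed under the alternatives, 302 kept their direction and their side of 2-fold, 28 passed it and 12 no longer did. The other 48 changed sign, 40 of them with both values within 2-fold and 8 with 1 of the values past it, which are given below. Of 360 shares of cells, 340 stayed within their interval. Some of these recomputations could not differ from the main value. Plate TH02_18.20.16 is the only matched P7 plate, so its 18 log2 differences and 54 shares alone repeat the main values. The sets of 5 plates hold the same E15.5 cells, and the limit of 3000 genes left out no cell of P7 MB or E15.5. These counts thus overstate how stable the values are. With all 5 plates by column name, 1 member was at least 2-fold higher in P7 MB over FB, 1 in P7 FB over OB and 1 in P7 over E15.5 in MB, where 3 were lower. With the exchange 4 were higher in P7 FB over OB, 1 was higher and 2 lower in P7 over E15.5 in MB, and 1 was lower in P7 over E15.5 in FB. From mean log2 values 4 were higher in P7 FB over OB and 1 in E15.5 MB over FB, and without the highest cell of each gene 4 in P7 FB over OB. After rescaling 5 were higher in P7 over E15.5 in FB. Plate TH01_14.15 alone gave 1 member 20 points higher with Th in E15.5 MB and 2 in E15.5 FB, and plate TH01_15.14 alone 0 in E15.5 FB. Spr changed sign in P7 MB over OB with failed cells (-0.19) and on plate TH02_16.18.20 (-0.039), and in P7 FB over OB with failed cells (-0.25) and on plates TH02_16.18.20 (-0.25) and TH02_20.16.18 (-0.29). Pts in P7 FB over OB was at 1.94 from mean log2 values, and Qdpr in P7 over E15.5 in FB at 1.32 from mean log2 values and 1.08 after rescaling. The cause was not tested. Of 57 correlations over clusters, 28 moved by more than 0.1. With 1 pool for each group, cells and not animals carry the spread.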
